A study of Mus musculus with 4 samples.

Results

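The interferon-inducible GTPases are enzymes that cells make after exposure to interferon. They were taken here as the probe sets whose platform symbol was Gbp2, Gbp6, Gbp7, Iigp1 or Igtp, plus the probe set annotated to both Tgtp1 and Tgtp2. This gave 8 probe sets for 7 genes, of 10861 probe sets in the table. Gbp7 and Iigp1 had 2 probe sets each, and the signals of Tgtp1 and Tgtp2 could not be separated.

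The arrays read RNA of EML cells, a line of mouse lymphohematopoietic progenitors that grows on stem cell factor (SCF), which binds the receptor tyrosine kinase KIT. Each of 2 lines carried a mutant KIT brought in with a pLXSN retrovirus, either Del417-419insY, which alters the extracellular part of the receptor, or D816V, which alters its kinase domain. Both lines had been selected with geneticin and then for growth without added factor, and were sorted for KIT, so no group was free of mutant KIT or of these selections. Each line was profiled without SCF and after 48 hours with 250 ng/mL SCF, with 1 array per group. Each line was a single transduced population, the sources used here do not give how long the cells without SCF were cultured, and EML cells without a mutant were not analysed here. The values are log2 levels relative to a level that differs between probe sets, so a value can be compared between arrays but not between genes, and the labelled cell type cannot be checked from absolute marker levels. Medians over all probe sets lay between -0.20 and -0.02 on the 4 arrays, lowest for D816V with SCF, where values were also most spread (SD 0.79, against 0.59 to 0.72).

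Guanylate-binding proteins (Gbp genes) are large GTPases of the dynamin superfamily, and immunity-related GTPases (Iigp1, Igtp, Tgtp1, Tgtp2) are a smaller, separate family. In mouse cells both families gather on the vacuoles that hold intracellular parasites and bacteria and take part in breaking them. Their genes are switched on when interferon receptors activate JAK kinases and STAT proteins. These act through short promoter elements, among them GAS elements and interferon-stimulated response elements (ISRE), the second of which IRF proteins also recognise.

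The promoters of the 7 genes were read from RefSeq (GRCm38.p6). Windows from 250 bases before to 50 after the annotated start were found for 5 of the 7 (Gbp2, Gbp7, Igtp, Tgtp1 and Tgtp2). The 110 bases just before each start are printed 5′ to 3′ on the gene's own strand, with matches to the ISRE core (GAAANNGAAA, or TTTCNNTTTC on the other strand) and to the GAS core (TTCNNNGAA, the same on both strands) in capitals. The stretches lie at chr3:142620553-142620662 (plus strand) for Gbp2, chr3:142530226-142530335 (plus) for Gbp7, chr11:58199446-58199555 (plus) for Igtp, chr11:48992247-48992356 (minus) for Tgtp1 and chr11:49064213-49064322 (minus) for Tgtp2.
Gbp2: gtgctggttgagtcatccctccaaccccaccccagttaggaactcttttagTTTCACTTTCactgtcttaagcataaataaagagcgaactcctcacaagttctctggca
Gbp7: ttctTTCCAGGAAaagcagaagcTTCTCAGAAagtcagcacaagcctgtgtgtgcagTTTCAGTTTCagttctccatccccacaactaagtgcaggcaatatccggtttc
Igtp: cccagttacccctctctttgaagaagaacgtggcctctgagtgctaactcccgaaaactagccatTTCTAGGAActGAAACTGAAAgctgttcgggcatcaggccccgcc
Tgtp1: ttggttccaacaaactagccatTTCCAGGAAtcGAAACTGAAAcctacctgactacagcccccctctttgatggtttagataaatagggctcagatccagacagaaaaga
Tgtp2: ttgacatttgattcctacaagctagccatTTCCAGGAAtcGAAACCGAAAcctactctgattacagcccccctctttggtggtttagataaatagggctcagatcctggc

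All 5 windows held the ISRE core, as did 3.44% of 32851 promoter windows of 300 bases. The GAS core was in 4 of the 5, all but Gbp2, and in 8.3% of all windows. Both were together in 0.454% of all windows. In Igtp, Tgtp1 and Tgtp2 the GAS core ended 2 bases before the ISRE core began, while in Gbp7 its matches lay farther upstream, and no match of one motif overlapped the other. The ISRE core began at -59 in Gbp2, -53 in Gbp7, -34 in Igtp, -77 in Tgtp1 and -70 in Tgtp2, counted from the annotated start. The genes were chosen as interferon-inducible, so these motifs can be present whatever the arrays show. Tgtp1 and Tgtp2 are near copies, so their windows are not independent cases. A match describes letters in the window and shows no binding.

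**Figure D1:**
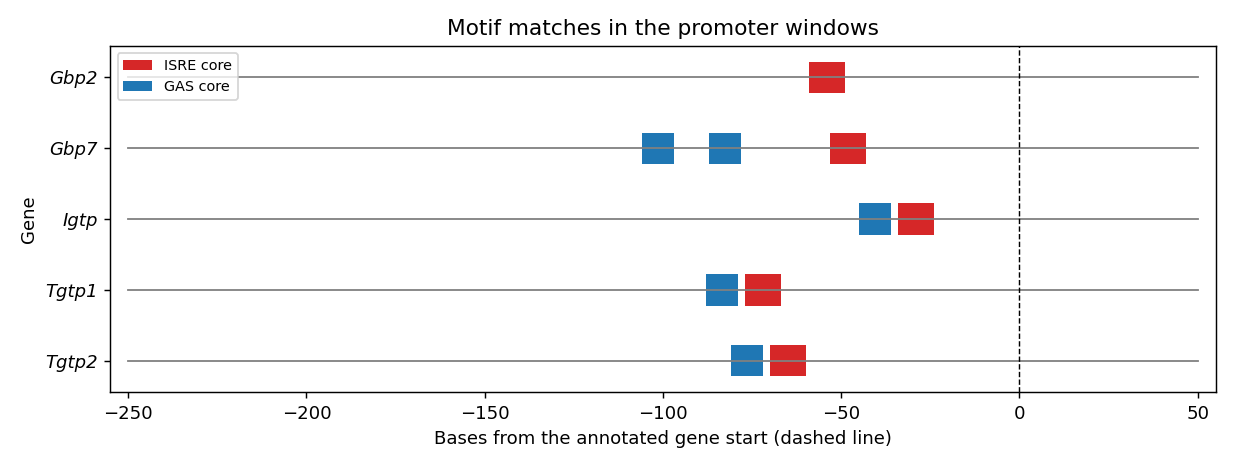
Positions of ISRE core matches (red) and GAS core matches (blue) in the promoter windows of 5 genes, with distance from the annotated gene start in bases on the x axis and 1 line per gene. All 5 genes have a red block whose first base lies from -77 to -34, and in Igtp, Tgtp1 and Tgtp2 a blue block lies just upstream of it.

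The lines were compared to learn which genes differ with the site of the KIT mutation. All 8 GTPase probe sets were higher in D816V cells, by 4.79-fold (Igtp) to 122-fold (the probe set of Tgtp1 and Tgtp2). On the 2 Del417-419insY arrays the 8 probe sets read between -1.41 and 0.83, and on the 2 D816V arrays between 2.02 and 6.32. These ranges pool probe sets whose reference levels differ. All 8 passed the limma test, where 16.7% of all probe sets were called higher in D816V cells and 26.3% lower. All 8 were also 2-fold or more higher both without SCF, as were 6.1% of all probe sets, and with SCF, as were 6.09%, and 4.74% of all were so in both conditions. The median difference of the 8 was 4.57 on the log2 scale, beside -0.14 over all probe sets. The 8 were chosen with earlier results of these data known, so these counts and this median are no independent test. The test has no repeat arrays and uses the gap between the SCF responses as its error, and cyclic loess scaling lowered the 8 differences to between 1.79 and 4.93, with all 8 still called.

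**Figure D2:**
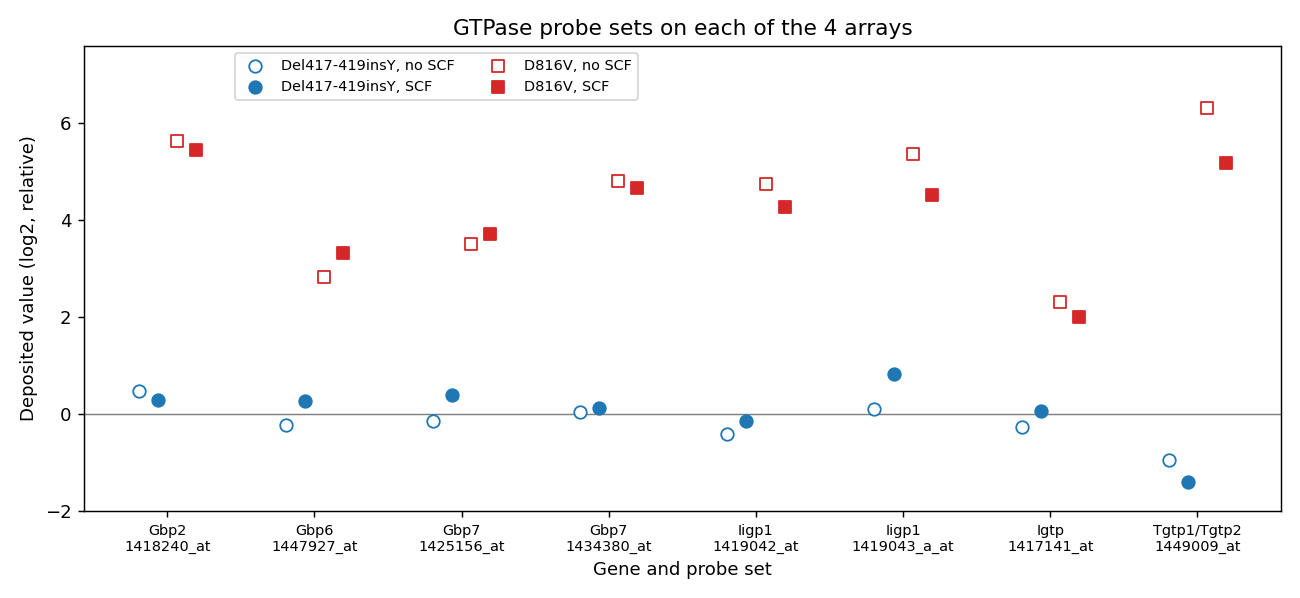
Deposited log2 values (y axis) of the 8 GTPase probe sets (x axis) on each of the 4 arrays, blue circles for Del417-419insY and red squares for D816V, open without SCF and filled with SCF, 1 array per point. Every red point lies at 2.02 or above and every blue point at 0.83 or below.

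Among the guanylate-binding proteins, Gbp2, a lipid-anchored member that reaches parasite vacuoles, read 0.48 and 0.29 in Del417-419insY cells without and with SCF, and 5.64 and 5.45 in D816V cells. The difference was 5.16 in both conditions, a 35.8-fold higher level in D816V cells (SE 0.14, limma adjusted p = 2.4e-06). Because the 2 SCF responses of Gbp2 were the same to the last deposited digit, this SE comes from the prior over all probe sets alone.

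Gbp7 lies in the same chromosome 3 cluster as Gbp2, and its 2 probe sets gave the same direction with unlike size. Probe set 1434380_at read 0.04 and 0.12 in Del417-419insY cells without and with SCF, and 4.82 and 4.67 in D816V cells. Probe set 1425156_at read -0.14 and 0.39, and 3.52 and 3.72. The mean differences were 4.66 (25.4-fold, SE 0.14, limma adjusted p = 3.1e-06) and 3.49 (11.3-fold, SE 0.15, limma adjusted p = 9.2e-06), so probe sets of a single gene lay 1.17 apart.

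Gbp6 belongs to a second cluster, on chromosome 5. It read -0.21 and 0.28 in Del417-419insY cells without and with SCF, and 2.83 and 3.34 in D816V cells. Its difference of 3.05 (8.27-fold, SE 0.14, limma adjusted p = 1.1e-05) was the smallest among the Gbp probe sets and hardly moved with SCF, at 3.04 without and 3.06 with it. The RefSeq annotation lists 5 Gbp genes on chromosome 3 and 6 on chromosome 5, of which the table used here held 2 and 1. The other genes of both clusters were not analysed here, and whether these probe sets read transcripts of close paralogs was not tested.

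The immunity-related GTPases divide into effectors, which coat the vacuole, and regulators, which sit on the cell's own membranes and hold the effectors inactive there. The effectors Tgtp1 and Tgtp2, near copies also called Irgb6, showed the widest gap between the lines. Their shared probe set read -0.94 and -1.41 in Del417-419insY cells without and with SCF, and 6.32 and 5.19 in D816V cells. The mean difference was 6.93 (SE 0.19, limma adjusted p = 2.4e-06), with 7.26 without SCF and 6.60 with SCF. It ranked 6 among all 10861 probe sets by mean difference.

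Iigp1, the effector also called Irga6, was read by 2 probe sets that lay close together without SCF and apart with it. Probe set 1419042_at read -0.41 and -0.14 in Del417-419insY cells without and with SCF, and 4.76 and 4.28 in D816V cells. Probe set 1419043_a_at read 0.11 and 0.83, and 5.37 and 4.53. Their mean differences were 4.79 (27.6-fold, SE 0.20, limma adjusted p = 8.1e-06) and 4.48 (22.3-fold, SE 0.33, limma adjusted p = 0.0001). The probe sets gave differences of 5.16 and 5.26 without SCF, but 4.41 and 3.70 with SCF, so that the second read 38.3-fold in the absence of ligand and 13.0-fold in its presence.

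Igtp, the regulator also called Irgm3, showed the smallest gap. It read -0.25 and 0.07 in Del417-419insY cells without and with SCF, and 2.32 and 2.02 in D816V cells. The difference of 2.26 (4.79-fold, SE 0.18, limma adjusted p = 0.00016) was 2.58 without SCF and 1.94 with SCF.

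By size of the difference the order was Tgtp1 and Tgtp2, Gbp2, Iigp1, Gbp7, Gbp6 and Igtp, with the upper Gbp7 probe set between those of Iigp1. With 1 array per group the order has no replicate check. Neighbours from Gbp2 down to Igtp lay closer together than the 1.17 that separated the Gbp7 probe sets, so their order cannot be read. After cyclic loess Gbp2 (2.33) stood below the upper Gbp7 probe set (2.52), and the second Iigp1 probe set (1.96) below Gbp6 (2.00), while Tgtp1 and Tgtp2 kept the first place (4.93). Of the 8, 6 were among the 100 largest differences of the table, with Gbp6 at rank 117 and Igtp at rank 213.

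**Figure D3:**
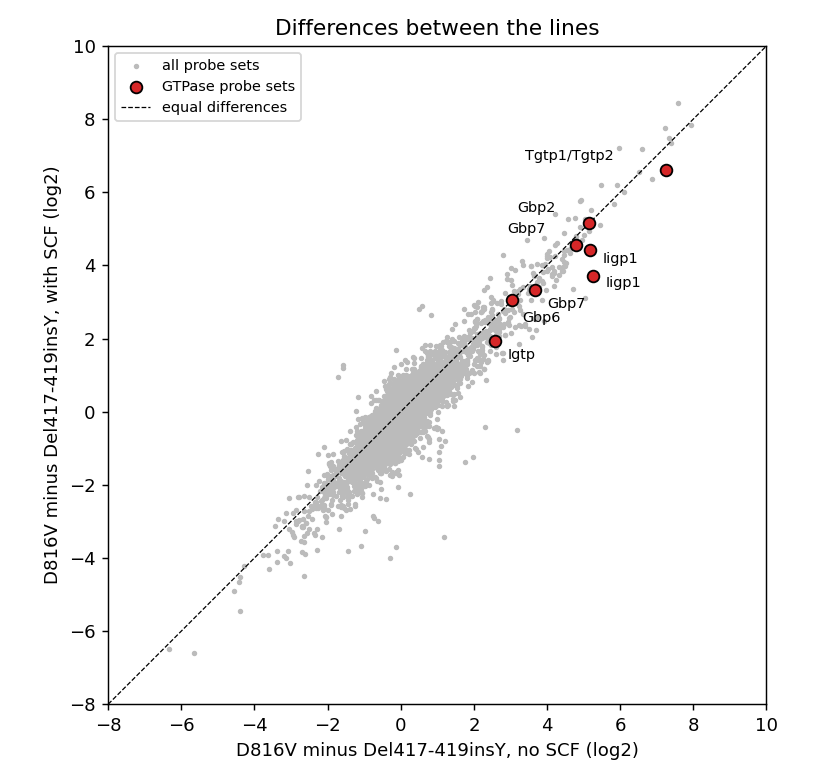
Difference between the lines without SCF (x axis) and with SCF (y axis), both in log2 units, for all 10861 probe sets (grey) and the 8 GTPase probe sets (red), with a dashed line where both are equal. The GTPase probe sets lie from 2.58 to 7.26 on the x axis and from 1.94 to 6.60 on the y axis. The second Iigp1 probe set falls farthest below the line, at 5.26 and 3.70.

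The arrays with ligand were compared with those without to learn how each line responds to SCF. No GTPase probe set passed the limma test for SCF, which called 5.21% of all probe sets, and 3 of 8 had an unadjusted p under 0.05 beside 21.3% of all. The test for SCF depended on the unit of the fit, since it called 566 of 10861 probe sets and 0 of 6404 genes when probe sets of a gene were averaged. The shared probe set of Tgtp1 and Tgtp2 was lower with SCF in both lines, with -0.47 for Del417-419insY and -1.13 for D816V (mean -0.80, SE 0.19, limma adjusted p = 0.058, and 0.02 to 0.14 over the alternatives). Gbp6 was higher with SCF in both, by 0.49 and 0.51 (mean 0.50, SE 0.14, limma adjusted p = 0.09, and 0.046 to 0.16 over the alternatives). Both passed when the probe sets with the lowest means were left out (adjusted p = 0.02 and 0.046), and Tgtp1 and Tgtp2 also after median centring (0.043).

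Within the lines most GTPase probe sets read slightly higher with SCF in Del417-419insY cells and slightly lower in D816V cells. In Del417-419insY cells 6 of 8 probe sets were higher with SCF, with a range of -0.47 to 0.73 and a median of 0.30, beside a median of 0.01 over all probe sets. In D816V cells 6 of 8 were lower, with a range of -1.13 to 0.51 and a median of -0.24, beside -0.07 over all. The shares of all probe sets that were higher or lower with SCF were not counted, so these counts have no background beside them. The 8 also include both probe sets of Gbp7 and of Iigp1. A difference of 2-fold or more was reached by none in Del417-419insY cells, where 2.5% of all probe sets reached it, and by that of Tgtp1 and Tgtp2 in D816V cells, where 3.08% did. Iigp1 moved in opposite directions, by 0.27 and -0.48 on the first probe set and by 0.73 and -0.83 on the second. Igtp did so too, by 0.33 and -0.31, while Gbp2 had -0.18 in both lines. Opposite signs in the lines occurred in 34% of all probe sets. A difference between the responses of the lines could not be tested with 1 array per group, and both responses of a line enter the differences between the lines given above.

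**Figure D4:**
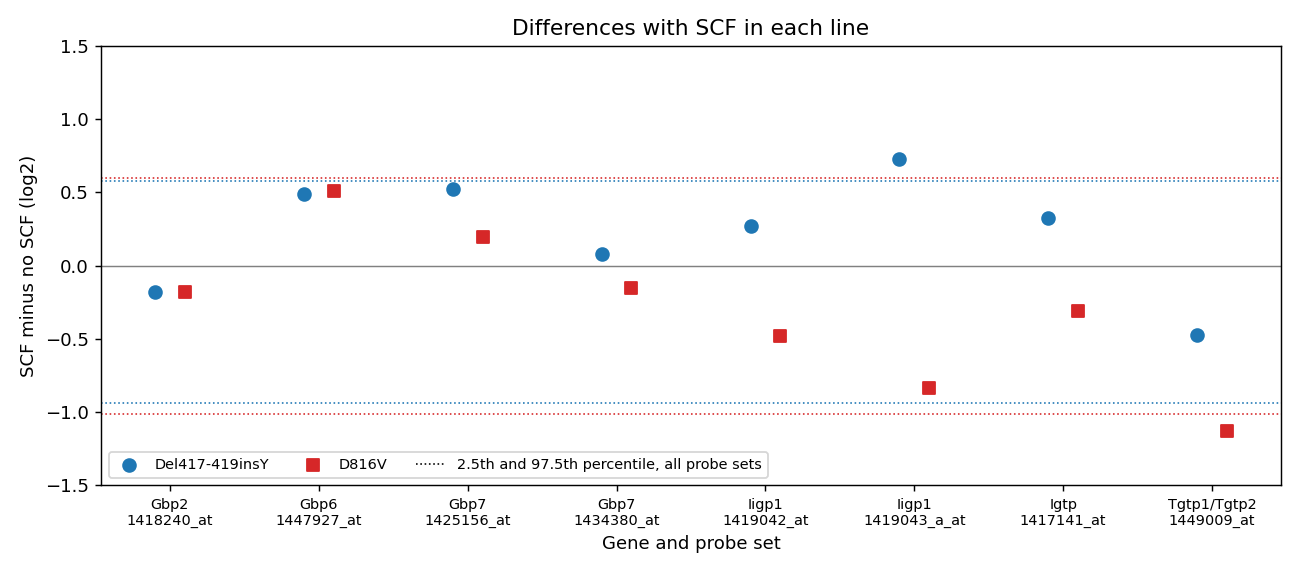
Difference with SCF (y axis, log2) of the 8 GTPase probe sets (x axis) in Del417-419insY cells (blue circles) and D816V cells (red squares), with dotted lines at the 2.5th and 97.5th percentile of all probe sets in each line. Most points lie inside these lines, with Tgtp1 and Tgtp2 in D816V cells at -1.13 and 1 Iigp1 probe set in Del417-419insY cells at 0.73 outside them.

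Other interferon-inducible GTPases in the table went the same way. Of a list of 25 such genes 4 were measured, with 1 probe set each, and all 4 were higher in D816V cells. Here and below, measured means held in the table used here. The filter behind that table is not given, so whether it favoured genes that differ between the lines was not tested. The 4 genes therefore do not show how the genes of the list outside the table behaved. Mx1, a dynamin-like antiviral GTPase, differed by 3.63 (limma adjusted p = 6.24e-06), the immunity-related GTPase Ifi47 by 1.78 and the regulators Irgm2 and Irgm1 by 1.72 and 1.18. Of 3 of these genes with a promoter window, Irgm1 and Irgm2 held the ISRE core.

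Upstream in the pathway, interferon receptors and STAT3 were lower or did not pass. Of 18 ligands, receptors, JAK kinases and STAT proteins 9 genes were measured by 15 probe sets. Of these, 1 was higher and 9 were lower in D816V cells, beside 16.7% higher and 26.3% lower over all probe sets. The median was -0.56, beside -0.13 over all probe sets with 1 symbol. Probe sets of Ifnar2 and Ifnar1, the chains of the type I interferon receptor, differed by -1.004, -0.72 and -0.15, and by -0.66 and -0.64. The -0.15 of Ifnar2 did not pass. The 3 probe sets of Stat3 differed by -0.60 to -0.92, and Il10rb, a receptor chain shared by interleukin 10 and type III interferons, by -0.56. Ifngr1, a chain of the interferon gamma receptor, did not pass (-0.19), nor did Stat2 (0.27), both chosen for mention after their values were seen. The higher probe set was of Jak2 (0.42, limma adjusted p = 0.0456), which was not called after quantile or cyclic loess scaling. No interferon gene was among those analysed here.

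The list of interferon regulatory factors also held the transcriptional regulators Nlrc5 and Batf. Of its 8 measured genes, 1 probe set each, 5 were higher and none was lower, beside 16.7% and 26.3% of all probe sets. The median was 0.49, and of the 6 Irf genes in the list 3 were higher. Irf7, which amplifies type I interferon responses, differed by 2.89, the MHC class I activator Nlrc5 by 2.14, Irf1 by 0.89, Batf by 0.56 and Irf5 by 0.43. Irf9, the DNA-binding part of the ISRE complex, had 0.27, Irf3 0.06 and Irf2 -0.21, and these did not pass.

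Of 10 probe sets for 6 inhibitors of interferon signalling 3 were higher and 1 lower, and 6 did not pass. With 16.7% of all probe sets called higher and 26.3% lower, these counts do not set the list apart. Usp18, which blocks signalling at the type I receptor and is itself interferon-induced, differed by 4.03, and Socs1, a JAK inhibitor, by 2.27. The third was a probe set of the phosphatase gene Ptpn2, at 0.53, whose other probe set had 0.42 and did not pass. The lower probe set, of the phosphatase gene Ptpn6 (-0.45, limma adjusted p = 0.0498), was left out or not called under 6 of the 8 alternatives. Socs3 had -0.31 to -0.37 on 3 probe sets and Pias1 -0.27, none of which passed.

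Among 51 probe sets for 32 other interferon-induced genes 39 were higher and 3 lower, while 9 did not pass. Over all probe sets 16.7% were higher and 26.3% lower. The median of the list was 1.14. Ifitm3, a membrane protein that blocks virus entry, differed by 7.37, the antiviral enzyme gene Rsad2 by 2.78 to 4.78 on 3 probe sets, Parp14, an ADP-ribosyltransferase, by 4.67 and Ifit1, which binds foreign RNA, by 4.30. The lower ones were Ifih1, a sensor of viral RNA, at -2.80, and both probe sets of Ifi27 at -0.71 and -0.56.

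The conjugation machinery of autophagy, which mouse cells need to load these GTPases onto vacuoles, was called about as often as all probe sets. Of 15 probe sets for 11 genes 4 were higher, 3 lower and 8 not called, beside 16.7% higher and 26.3% lower over all, with a median of 0.15, and cyclic loess gave 7 higher and 2 lower. Map1lc3a, an LC3 protein, differed by 2.48, both probe sets of Gabarapl1, of the same protein family, by 0.69 and 0.81, and Atg7, the activating enzyme of the system, by 0.46. Atg12 was lower on both probe sets (-0.89 and -0.68), as was the protease gene Atg4b (-0.49). Sqstm1, an autophagy receptor, had 0.59 and did not pass.

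**Figure D5:**
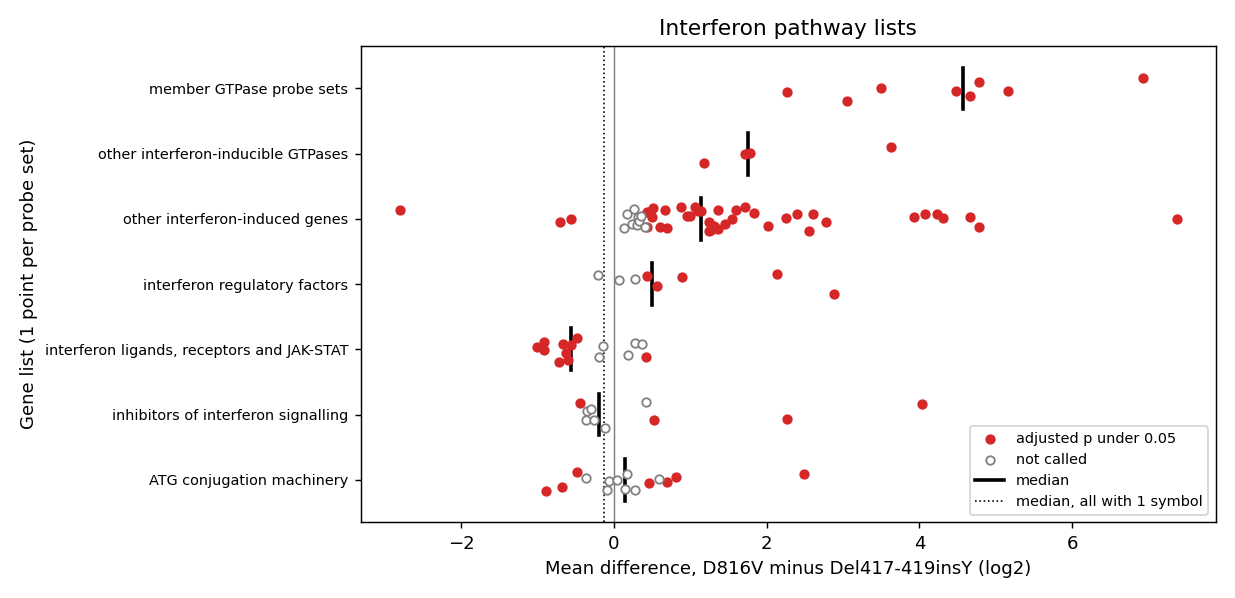
Mean difference between the lines in log2 units (x axis), 1 point per probe set, for the 8 GTPase probe sets and 6 lists of related genes (y axis), red where called by limma and open where not, with a black bar at each median. The 8 GTPase probe sets have the highest median, 4.57, and the list of ligands, receptors and JAK-STAT genes the lowest, -0.56. The other interferon-inducible GTPases have a median of 1.75. Members and lists were chosen with earlier results of these data known, so the order of the medians is no test.

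Markers of cells other than the progenitor also differed between the lines, and their part in the GTPase result was not tested. All 6 probe sets of 5 measured mast cell markers were higher in D816V cells, with a median of 2.07. So were all 3 measured dendritic cell markers, Itgax (0.93), Cd74 (1.85) and Ccr7 (2.47). Over all probe sets 16.7% were called higher and 26.3% lower. Of 7 macrophage markers 2 were measured, Cd68 at 2.81 and Lyz2 at -0.86. Of 10 markers of T and NK cells, which make interferon gamma, the table used here held Nkg7 alone, at 0.09, which did not pass. None of 4 B cell markers was analysed, and the fibroblast marker Pdgfrb did not pass. Progenitor markers had 2 higher and 6 lower of 11 probe sets. The lower ones were of Kit (-1.66 and -1.18), Runx1 (-0.997 and -0.884), Ptprc and Lmo2, and the higher ones of Gata2 (0.44 and 0.48). Further Runx1 probe sets, at -0.46 and -0.23, did not pass, nor did Spi1 at -0.21. Both lines carried an introduced mutant KIT and were sorted for KIT, so Kit is no independent marker here. Summed marker levels cannot be given, since the values are relative.

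Of the probe sets outside the family, those nearest to the mean profile of the 8 were 2 of H2-D1, a classical MHC class I gene, at distances of 0.21 and 0.29 on the log2 scale over the 4 arrays, each profile centred on its own mean. They were followed by Oasl2, an interferon-induced gene related to the oligoadenylate synthetases (0.30), Rab27b, a regulator of granule secretion (0.32), and Olfm3 (0.34). The 8 probe sets themselves lay 0.34 to 2.68 from that mean profile. With 4 arrays the likeness mostly measures a similar size of the difference between the lines.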

How the data were processed

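RNA from EML cells, a mouse blood progenitor line, was hybridised to Affymetrix M430 2.0 arrays, 1 array for each of 4 groups. The deposited values were computed with RMA, per the submitters' processing notes, and are treated here as log2. The authors' table has 10861 probe sets, of 45101 on the array per the design text. The filter behind this, the level that each probe set was set relative to, and the log base (taken as 2 because RMA gives log2) are not given in the sources used here. Platform symbols were updated by gene ID against RefSeq of GRCm38.p6.

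All probe sets were fitted together with limma 3.58.1 in R 4.3.3 on genotype plus SCF, two-sided, with Benjamini-Hochberg adjustment over the 10861 and a threshold of 0.05. The fit has 1 residual degree of freedom, the difference between the SCF responses of the lines, which it takes for error. P-values therefore measure neither repeat arrays nor repeat populations. The variance prior weighed 5.92 degrees of freedom at an SD of 0.147. Promoter letters, 250 bases before to 50 after each gene start, came from RefSeq. The number of arrays limits the precision.

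By rule the genes named are all members, every gene of lists with few measured genes, the 4 largest differences of longer lists, and the 5 nearest profiles. Ifngr1, Stat2, Jak2, Ifih1, Ifi27, Atg7 and Atg4b were added after their values were seen, and cell type markers came from a separate list. Members and lists were chosen with earlier results of these data known. The scaling, the filter, the SCF term, the variance prior and gene means were varied.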

Additional observations from a re-analysis of the deposited data

Results flagged for a closer look

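Some GTPase probe sets moved with SCF in opposite directions in the lines. The response in D816V cells minus that in Del417-419insY cells was -1.56 for Iigp1 on probe set 1419043_a_at and -0.75 on 1419042_at, -0.63 for Igtp and -0.23 for Gbp7 on 1434380_at. These differences were not tested, since each rests on 4 arrays without replicates. The signs stayed opposite for these 4 probe sets after quantile, cyclic loess and median scaling. The other Gbp7 probe set, 1425156_at, was higher with SCF in both lines, by 0.52 and 0.20.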

How the results depend on the processing

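All 63 genotype differences of the GTPase probe sets over 8 alternatives kept their direction and their call (limma adjusted p at most 0.0036). Of 55 SCF differences 52 kept their call. The filter, dropping the SCF term and changing the variance prior leave each genotype difference as it was, so its direction was fixed there. Centring shifts all differences alike. Gene means enter the same value for both probe sets of Gbp7 and for both of Iigp1. Quantile and cyclic loess scaling could move each probe set by its own amount. Median centring called 1 GTPase probe set for SCF. Leaving out probe sets below the 25th percentile of the mean relative value called 2. Scaling moved the median genotype difference of all probe sets from -0.14 to -0.04 (quantile), 0.00 (cyclic loess, 0.003) and -0.02 (centring), and the calls from 1810 higher and 2855 lower to 2176 and 2261, 2383 and 2200, and 2518 and 2153. Calls for SCF were 566, 330 after quantile scaling, 867 with the filter and 0 on gene means.

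Counts that moved by over 1.5 times were these. Quantile scaling gave 84 probe sets 2-fold or more higher with SCF in Del417-419insY cells and 136 lower in D816V cells, and the count higher in D816V cells was 69 after cyclic loess and 72 after centring. The filter gave 292 and 500 lower in D816V than in Del417-419insY cells without and with SCF, and 185 lower with SCF in D816V cells. On gene means, which have fewer features, the fit called 1147 genes higher and 1579 lower in D816V cells. By size 403 and 268 genes were higher and lower without SCF, 406 and 475 with SCF, 21 and 35 with SCF in Del417-419insY cells and 21 and 84 in D816V cells. Without the SCF term the fit called 862 higher and 1210 lower. In the list of ligands, receptors and JAK-STAT genes, the higher count of 1 became 0 after quantile and cyclic loess scaling and without the SCF term, and 2 after centring and with the filter. Its lower count became 4 on gene means and without the SCF term. The lower count of 1 among inhibitors became 0 after every scaling, with the filter, on gene means and without the SCF term. Regulatory factors had 3 higher without the SCF term. The autophagy list had 7 higher after cyclic loess and 1 lower without the SCF term. Other interferon-induced genes had 25 higher on gene means and 1 lower with the filter. The cause was not tested. No paired analysis was possible because the labels give no replicate numbers, although the SCF term already compares the lines within each condition. Another background correction and the slide as a block were not run, since the values are processed and no slide was given. Signal over background was not analysed here.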

Other observations

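The GTPase probe sets read -1.41 to 0.83 relative to their reference level in Del417-419insY cells and 2.02 to 6.32 in D816V cells, and other genes that were higher in D816V cells lay elsewhere relative to theirs. Ifitm3 read -7.51 and -7.37 in Del417-419insY cells without and with SCF, and -0.11 and -0.03 in D816V cells. The H2-D1 probe set nearest to the GTPases read -2.81 and -2.48, and 1.65 and 1.61.

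The ISRE core was in the promoter windows of 14 of 26 measured genes of the list of other interferon-induced genes that had a window, against 3.44% of all windows. Ifih1, which was lower in D816V cells, was among these 14. It was in 1 of 7 genes with a window in the list of regulatory factors, 1 of 8 among receptor and JAK-STAT genes, 1 of 4 among inhibitors, 2 of 3 among the other interferon-inducible GTPases and 0 of 8 in the autophagy list.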
